A study of Homo sapiens with 15 samples.

Results

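The genes described here are 38 named targets of the transcription factor NRF2 and genes of glutathione metabolism, taken by gene name from a table of 60675 genes. They were measured by RNA sequencing of ribosomal-RNA-depleted total RNA from HT1080, an established human fibrosarcoma cell line. In the library groups called KDAC4 H803A and KDAC4 H976Y, the cells' KDAC4 (gene HDAC4) carries the named substitution. In the group KDAC7 H709A, KDAC7 (gene HDAC7) carries its own. These variant cells were untreated, while the last group, TMP195, is wild-type cells given 1 µM of TMP195, an inhibitor of class IIa lysine deacetylases, for 2 days. KDAC4 and KDAC7 are such class IIa enzymes. H803A and H709A are read here as the inactivated forms and H976Y as the enhanced form of which the series speaks, since class IIa enzymes with tyrosine in place of this histidine are known to be more active. The groups held 3 usable libraries of KDAC4 H803A, 4 of KDAC4 H976Y, 4 of KDAC7 H709A and 3 of TMP195, numbered as in the labels. The column of KDAC4 H803A replicate 4 held gene lengths in place of counts and served only as the length of each gene. Untreated wild-type cells were not analysed here, so TMP195 and the wild-type genotype cannot be told apart in any comparison. The labels state neither whether a group's libraries are separate cultures nor whether a variant line is 1 clone; p-values therefore cover the spread among these libraries alone, and that spread may be technical.

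NRF2, the product of NFE2L2, is a transcription factor that the adaptor KEAP1 holds in the cytoplasm and hands to a ubiquitin ligase. Oxidants and electrophiles modify cysteines of KEAP1, NRF2 then escapes degradation, pairs with a small MAF protein and binds antioxidant response elements near genes that make and recycle glutathione, reduce peroxides and quinones, supply NADPH, store iron and export conjugates. BACH1 binds the same elements as a repressor and is released by haem. Because NRF2 is controlled mainly through its stability, the level of its messenger RNA need not follow its activity.

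The antioxidant response element is where NRF2 binds, so the upstream sequences of the genes were searched for its core, TGACNNNGC, on both strands of the 250 bases before the start site. RefSeq promoters (GRCh38.p14) were matched for 29 of the 38 genes by symbol. The core was present in 6 of these 29, against 3830 of all 35116 promoters (10.9%). RefSeq's start sites are used, and other annotations place some starts further upstream. These 6 matches, with 10 bases on each side, are shown 5′ to 3′ on the gene's own strand, with the core in capitals. In PGD, GCLM and GPX2 it lies on the opposite strand and reads as its reverse complement.
PGD, chr1:10398853-10398881, plus strand: cctcgccgggGCAATGTCAtctaggtgct
GCLM, chr1:93909446-93909474, minus strand: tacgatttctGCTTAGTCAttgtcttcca
ME1, chr6:83431170-83431198, minus strand: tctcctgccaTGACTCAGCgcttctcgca
GSTP1, chr11:67583736-67583764, plus strand: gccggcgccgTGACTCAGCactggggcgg
TXNRD1, chr12:104215670-104215698, plus strand: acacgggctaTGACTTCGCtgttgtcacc
GPX2, chr14:64942849-64942877, minus strand: acctgtttttGCTAAGTCAtcctggggat
The same 9 letters, TGACTCAGC, stood in the windows of ME1 and GSTP1. A match describes the letters of this window only and is not a measured binding site.

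Library totals ran from 6151417 to 24297525 counts, and 1 CPM (counts per 1e+06 counts of the scaled library size) stood for 4.86 to 23.9 counts. In KDAC4 H976Y, 16.1 to 31.5% of a library's counts were mitochondrial ribosomal RNA, against no more than 0.345% elsewhere. Its libraries also held 0.708 to 0.896% small nucleolar RNA, against no more than 0.0817% elsewhere. Mitochondrial messenger RNA made up 0.676 to 1.41% there and 2.38 to 14.7% elsewhere. In comparisons with KDAC4 H976Y, genotype and this RNA content cannot be told apart, and the part of each was not tested. The GC-richest 25% of genes were over 1 log2 unit higher, relative to the GC-poorest 25%, in KDAC4 H803A replicates 2 and 3 and KDAC7 H709A replicate 1. In the other libraries of these 2 variants this difference lay between -1.10 and -0.46. KDAC4 H803A replicate 1 and KDAC7 H709A replicate 4 differed by 1.98 times their counting variance, closer than any other pair from different groups (next 8.34), while replicate 1 stood 85.7 and 85.8 times apart from replicates 2 and 3 of its own label. Results are therefore also given without KDAC4 H803A replicate 1, and without it and KDAC7 H709A replicates 1 and 4. Both fits leave KDAC4 H803A only its GC-rich replicates 2 and 3. Its differences there from KDAC4 H976Y and TMP195, for any gene, cannot be told apart from GC content. The mesenchymal gene VIM averaged 3581 to 4981 CPM over the groups, and EPCAM, CDH1, PTPRC and HBB were at or near 0 in all of them.

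Of the 38 genes, 37 passed the filter on low counts; AKR1C2 did not. In KDAC4 H803A against KDAC4 H976Y, where 15.1% of all genes were called, 15 of the 37 were called lower, beside 5.85% of the 17780 genes tested, and 0 higher, beside 9.21%. A call is an adjusted p under 0.05 in edgeR's quasi-likelihood test, corrected over all genes tested. The median log2 difference of the 37 was -0.85, against 0.09 for all genes. At an unadjusted p under 0.05, 22 of the 37 were lower (13.8% of all genes) and 0 higher (19.9%). DESeq2 called 19 lower (10.2%) and 0 higher (14.5%). The 15 comprised all 5 tested quinone and carbonyl reductases (NQO1, AKR1B1, AKR1B10, AKR1C1, AKR1C3), both ferritin chains (FTL, FTH1), GCLM and GSR of the glutathione pathway, GPX1, PRDX1 and SRXN1 of the peroxide-reducing enzymes, TKT, and the glutathione transferases GSTM3 and GSTP1.

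KDAC7 H709A against the same KDAC4 H976Y libraries called 12.5% of all genes, with 7 of the 37 lower (5.19% of all genes) and 0 higher (7.28%), with a median of -0.41 against 0.09. These were AKR1B1, AKR1C1, FTH1, FTL, GSTP1, HMOX1 and PRDX1. At an unadjusted p under 0.05, 16 were lower (11.4% of all genes) and 0 higher (15.7%), and DESeq2 called 13 lower (8.38%) and 0 higher (10.8%). Both comparisons use the same KDAC4 H976Y libraries, so a call in both is not independent evidence.

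TMP195 against KDAC4 H976Y gave 2 genes higher, HMOX1 and ABCC1 (7.96% of all genes), and 4 lower, FTH1, FTL, GCLM and AKR1B10 (8.55%), of 37. The share of calls, 6 of 37, was near the background of 16.5%, and the median was -0.26 against 0.03. At an unadjusted p under 0.05, 3 were higher (16.2% of all genes) and 6 lower (17%), and DESeq2 called 2 higher (11.4%) and 5 lower (14%).

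In TMP195 against KDAC4 H803A, where 5.34% of all genes were called, 6 of the 37 were higher (1.56% of all genes), namely HMOX1, AKR1B1, AKR1C1, NQO1, GSTP1 and ABCC1, and 0 lower (3.78%). At an unadjusted p under 0.05, 14 were higher (7.55% of all genes) and 0 lower (11%). DESeq2 called 11 higher (3.84%) and 0 lower (7.09%), and the median was 0.61 against -0.11. In TMP195 against KDAC7 H709A, where 6.29% of all genes were called, 4 were higher (1.99% of all genes), HMOX1, AKR1B1, GSS and ABCC1, and 0 lower (4.31%). There, 9 were higher (8.73% of all genes) and 1 lower (14%) at an unadjusted p under 0.05. DESeq2 called 8 higher (5%) and 1 lower (9.03%), and the median was 0.21 against -0.07.

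KDAC7 H709A against KDAC4 H803A gave 0 calls among the 37 genes, as among all genes (0%). At an unadjusted p under 0.05, 2 of the 37 were higher (2.06% of all genes) and 0 lower (4.22%), and DESeq2 called 0 of the 37 (0.0847% of all genes higher, 0.361% lower). This comparison rests on the library that resembles the other group: without KDAC4 H803A replicate 1, which leaves only GC-rich libraries of that label, 16 of 38 (25.7% of all genes) were called. Without it and KDAC7 H709A replicates 1 and 4, 22 of 38 (60.2%) were called, a share near that of all genes, but both remaining KDAC4 H803A libraries are then GC-rich and neither remaining KDAC7 H709A library is, so genotype and GC content cannot be told apart in that fit.

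A count of genes whose libraries did not overlap between the groups needs no fit. In KDAC4 H803A against KDAC4 H976Y, 15 of the 37 had all libraries lower (11% of all genes) and 1 higher (12.1%; 23.1% in either direction). KDAC7 H709A against KDAC4 H976Y had 9 lower (8.95%) and 1 higher (11.2%; either, 20.1%). In TMP195 against KDAC4 H976Y it was 10 lower (26.6%) and 7 higher (27.2%), 17 of 37 beside 53.8% of all genes. TMP195 was higher without overlap for 14 genes against KDAC4 H803A (12.8%) and for 10 against KDAC7 H709A (12.4%), and lower for 0 in each (11.4% and 11.8%; either direction, 24.3% in both comparisons). KDAC7 H709A against KDAC4 H803A had 0 in either direction, where 2.01% of all genes had no overlap (1.12% higher, 0.889% lower).

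Single libraries also moved the other counts. A library outside a comparison acts only through what all groups share in the fit, such as the dispersion. Leaving it out adds no evidence about the groups compared. Beside each count stands the percentage of all genes called in the same fit, and AKR1C2 was tested where the count is of 38. In KDAC4 H803A against KDAC4 H976Y, 27 of 38 (45.3%) were called without KDAC4 H803A replicate 1 and 32 of 38 (64.5%) without the 3 libraries. Both of these fits hold only GC-rich libraries of KDAC4 H803A. There were 6 of 38 (6.85%) and 5 of 38 (6.15%) called without KDAC4 H803A replicates 2 and 3. Without KDAC4 H976Y replicates 1, 2 and 3 they were 7 of 37 (7.37%), 6 of 37 (7.03%) and 6 of 37 (7.14%). In KDAC7 H709A against KDAC4 H976Y the count was 13 of 38 (18.5%) without KDAC4 H803A replicate 1 and 4 of 37 (6.87%) without KDAC4 H976Y replicate 3. For TMP195 against KDAC4 H976Y it was 2 of 37 (7.49%), 2 of 38 (7.32%) and 2 of 38 (7.08%) without TMP195 replicates 1, 2 and 3, shares near or below those of all genes. There it was 3 of 37 (9.73%), 3 of 37 (9.72%) and 3 of 37 (9.61%) without KDAC4 H976Y replicates 1, 2 and 3, and 9 of 38 (27.3%) without KDAC4 H803A replicate 1. For TMP195 against KDAC4 H803A it was 2 of 37 (2.41%), 2 of 38 (2.35%) and 3 of 38 (2.58%) without TMP195 replicates 1, 2 and 3. It was 3 of 38 (3.56%) and 3 of 38 (3.06%) without KDAC4 H803A replicates 2 and 3, and 3 of 37 (4.18%) and 3 of 37 (4.35%) without KDAC4 H976Y replicates 1 and 3. It was 14 of 38 (14.5%) without KDAC4 H803A replicate 1 and 10 of 37 (8.21%) without KDAC7 H709A replicate 1. For TMP195 against KDAC7 H709A it was 2 of 37 (2.36%), 1 of 38 (2.27%) and 2 of 38 (2.44%) without TMP195 replicates 1, 2 and 3, and 9 of 38 (14.6%) without KDAC4 H803A replicate 1. Of 38 calls over the comparisons, 9 held under all 22 alternatives: AKR1B1, AKR1C1 and PRDX1 in both inactive variants against KDAC4 H976Y, GCLM in KDAC4 H803A against KDAC4 H976Y, and HMOX1 in TMP195 against each inactive variant. A fit with the replicate number as a block ended 19 of the 38 calls. It is left out of the gene-by-gene lists below of what ended a call.

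**Figure D1:**
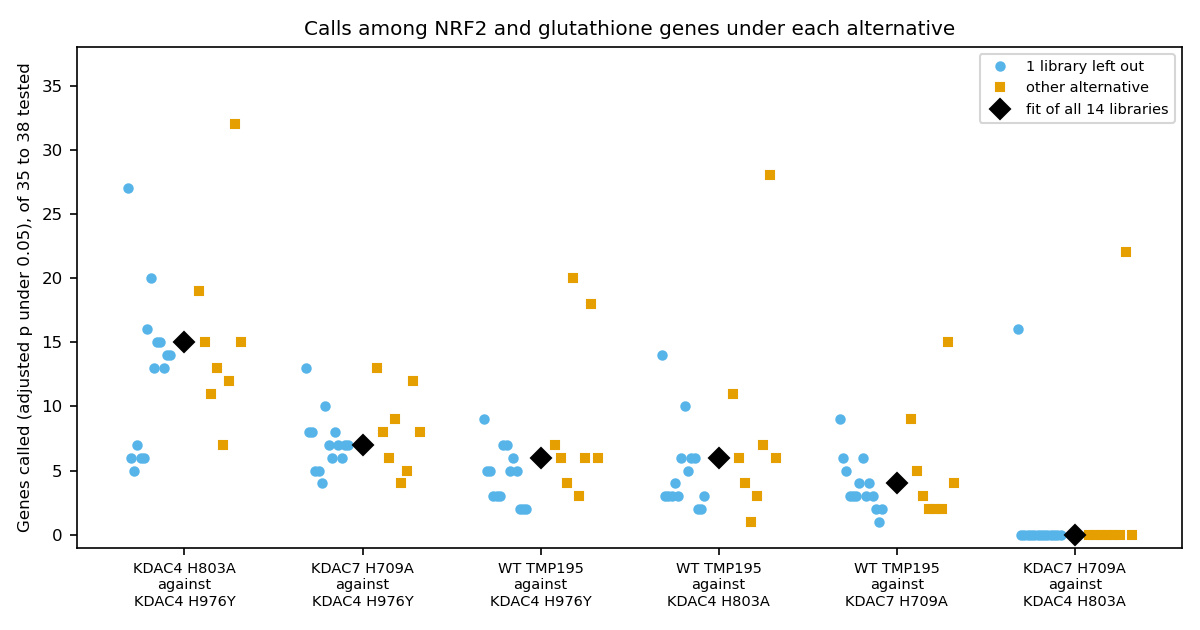
Number of the 38 genes, of which 35 to 38 were tested, called at an adjusted p under 0.05 (vertical axis) in each comparison (horizontal axis). Diamonds are the fit of all 14 libraries, circles leave out 1 library each and squares are the other alternatives. KDAC7 H709A against KDAC4 H803A stands at 0 except at 16 without KDAC4 H803A replicate 1 and at 22 without the 3 libraries.

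**Figure D2:**
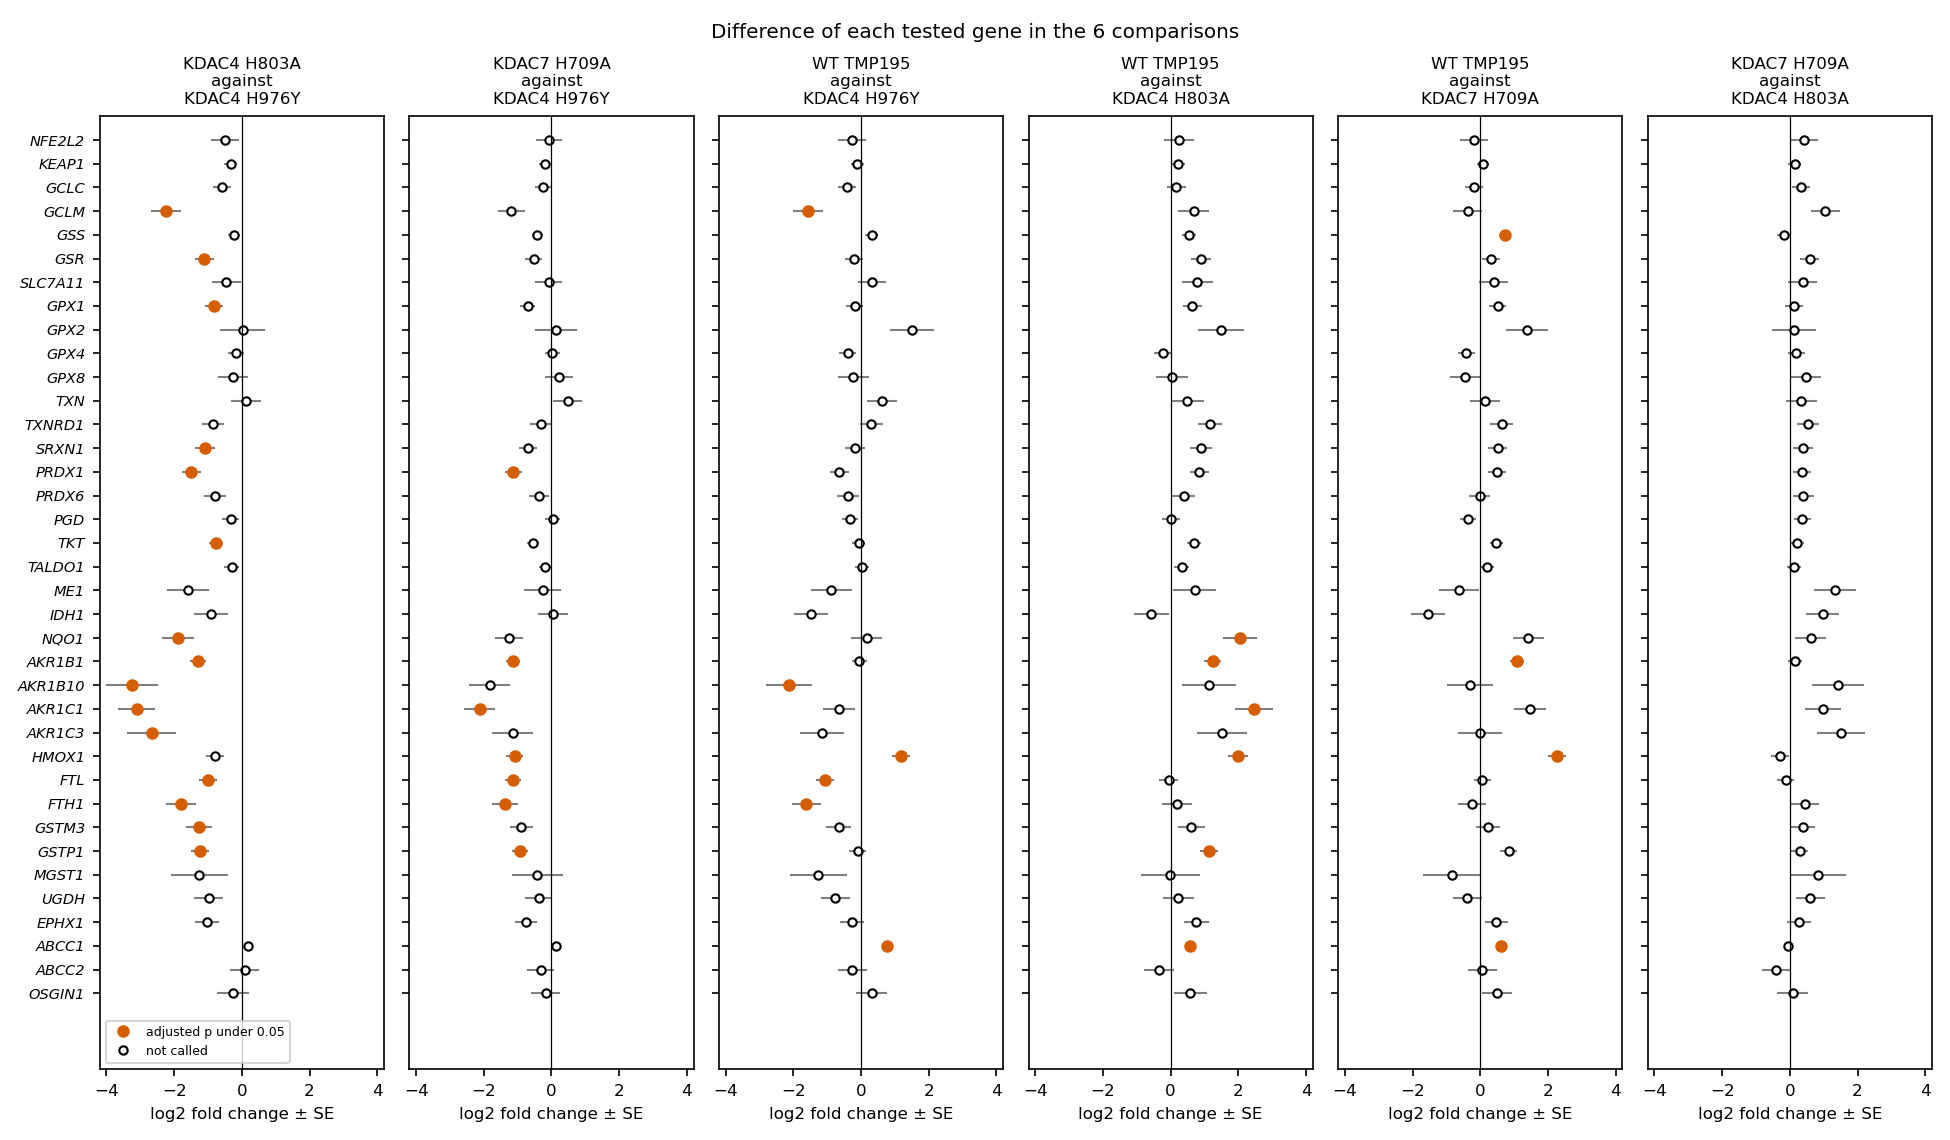
Log2 fold change with its SE (horizontal axis) of each of the 37 tested genes (vertical axis, by role) in the 6 comparisons (panels). Filled points passed an adjusted p under 0.05. The 15 called genes of KDAC4 H803A against KDAC4 H976Y lie left of 0, and the 6 called genes of TMP195 against KDAC4 H803A lie right of it.

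By group mean, 22 of the 37 genes were highest in KDAC4 H976Y, where 28.9% of all genes are, and 28 were lowest in KDAC4 H803A, where 21.1% are. KDAC4 H803A was the highest group for 1 gene (28.6% of all genes), KDAC7 H709A for 4 (20.7%) and TMP195 for 10 (21.8%). Within the inactive variants the GC split showed too: for 23 of the 37 genes (31.2% of all genes) the 3 GC-rich libraries all lay below the other 4, and for ABCC2 and OSGIN1 they all lay above (31.2%). HMOX1, FTL, GPX1, GSS, TKT, KEAP1, GPX2, ABCC1 and the AKR genes overlapped between these libraries. The part of GC content, mitochondrial RNA and small nucleolar RNA in the group differences was not tested, beyond the fit with GC and length offsets. That fit ended 17 of the 38 calls and is given beside each of them. The offsets also made 11 calls that the fit without them did not make.

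**Figure D3:**
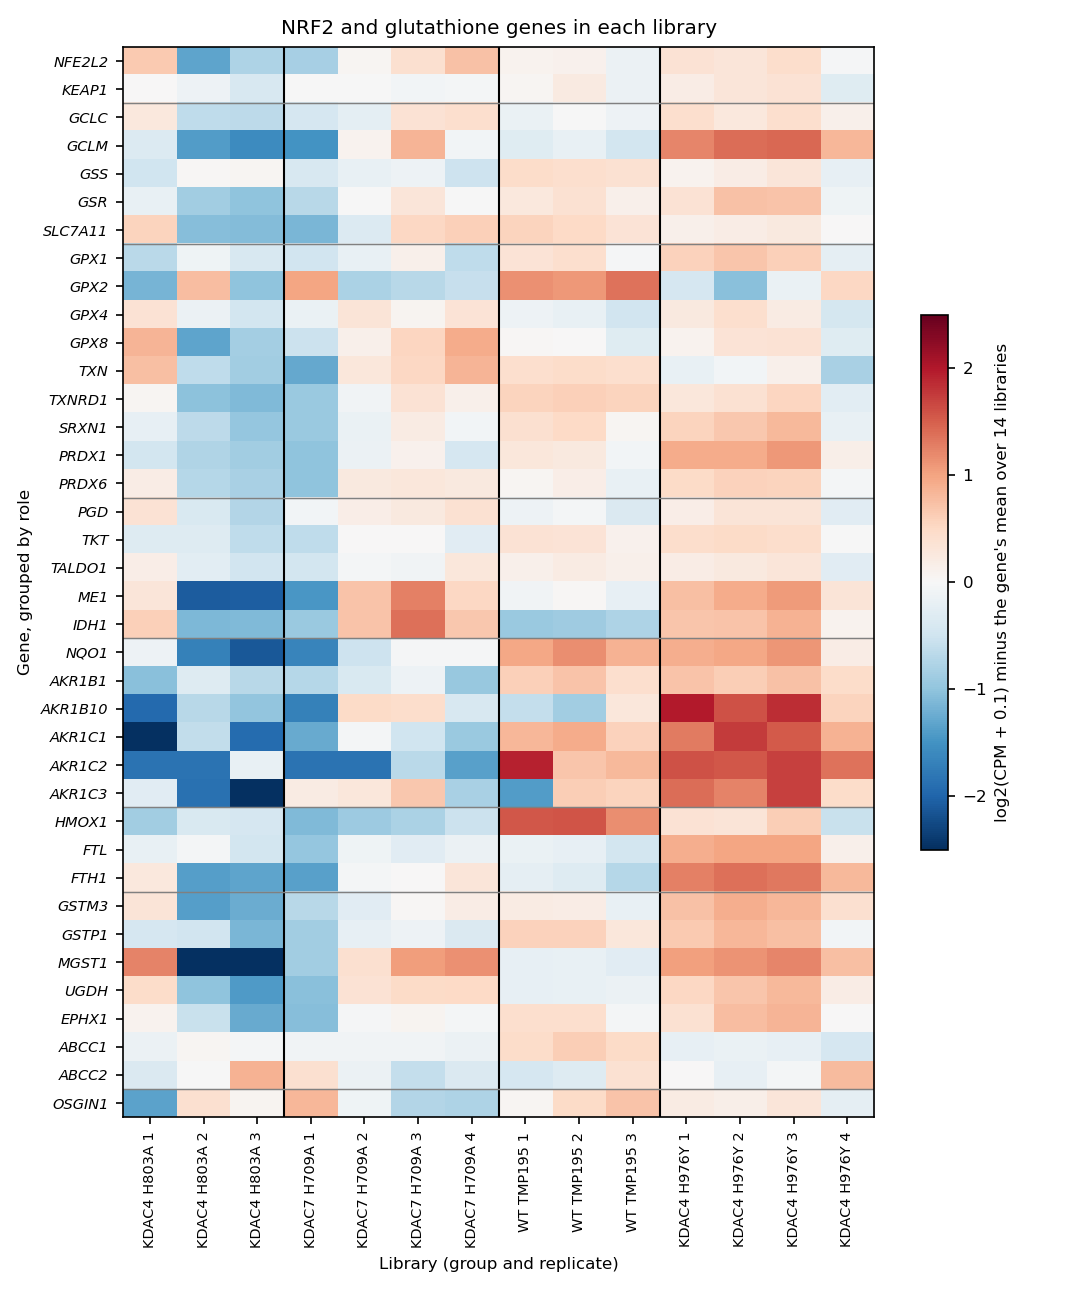
Level of the 38 genes (vertical axis, grouped by role) in the 14 libraries (horizontal axis), as log2(CPM + 0.1) minus the gene's mean over the libraries; red is above and blue below that mean. KDAC4 H803A replicates 2 and 3 and KDAC7 H709A replicate 1 are blue for most genes, and KDAC4 H803A replicate 1 resembles KDAC7 H709A replicate 4.

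NFE2L2 (ENSG00000116044, GRCh38 chromosome 2, 177227595 to 177392697), which encodes NRF2, was called in no comparison. It stood at 116, 29.2 and 42.6 CPM in KDAC4 H803A, with libraries here and below in the order of their replicate numbers. It was at 41.1, 75.6, 96.5 and 122 in KDAC7 H709A, at 77.8, 78.8 and 66 in TMP195 and at 93.6, 90.8, 99.5 and 71.7 in KDAC4 H976Y. The inactive variants each spanned the range of the other groups, with the GC-rich libraries low (29.2 to 42.6 CPM) and their other libraries high (75.6 to 122). Its log2 difference was -0.50 ± 0.42, adjusted p = 0.404, in KDAC4 H803A against KDAC4 H976Y, and passed without KDAC4 H803A replicate 1 (adjusted p = 0.011), which leaves the 2 GC-rich libraries of that label. KEAP1 (ENSG00000079999, chromosome 19, 10486120 to 10503741), the adaptor that marks NRF2 for degradation, was also called nowhere. Its libraries stood at 46.9, 42.5 and 35.3 CPM in KDAC4 H803A, at 46.7, 46.6, 44.8 and 45 in KDAC7 H709A, at 48.3, 54.5 and 42.3 in TMP195 and at 53.2, 57.5, 60.1 and 37.9 in KDAC4 H976Y. All 4 groups overlapped, and its largest difference was -0.33 ± 0.18, adjusted p = 0.222, in KDAC4 H803A against KDAC4 H976Y. That difference passed without the 3 libraries that stand apart (-0.45, adjusted p = 0.0402), which leaves only GC-rich libraries of KDAC4 H803A.

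HMOX1 (ENSG00000100292, chromosome 22, 35380361 to 35394214), haem oxygenase 1, which opens haem and frees its iron, was highest under TMP195. It was at 37.6, 38.2 and 28.8 CPM in TMP195, at 6.97, 9.88 and 9.54 in KDAC4 H803A, at 5.89, 6.77, 7.32 and 8.85 in KDAC7 H709A and at 16.5, 16.1, 19.8 and 8.65 in KDAC4 H976Y. Every TMP195 library lay above every other library, and KDAC4 H976Y replicate 4 lay among the inactive variants. The log2 difference of TMP195 was 1.99 ± 0.29, adjusted p = 0.00105, against KDAC4 H803A, and 2.27 ± 0.27, adjusted p = 0.000173, against KDAC7 H709A. Across the 22 alternatives these adjusted p-values ran from 2.18e-10 to 0.0165 and from 4.57e-16 to 0.0135. Against KDAC4 H976Y, TMP195 was higher by 1.19 ± 0.26, adjusted p = 0.00867, a call that ended with GC and length offsets (adjusted p = 0.133). KDAC7 H709A was lower than KDAC4 H976Y (-1.08 ± 0.25, adjusted p = 0.0127), a call that ended without KDAC4 H976Y replicate 3 (adjusted p = 0.0538), and also with GC and length offsets (adjusted p = 0.0975). The same difference in KDAC4 H803A was -0.80 ± 0.27, adjusted p = 0.0619, and passed without KDAC4 H976Y replicate 4 (adjusted p = 0.0136) or KDAC7 H709A replicate 1 (adjusted p = 0.0407).

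Ferritin stores the iron that haem oxygenase frees, and its light chain FTL was the most abundant of the 38 genes per length in every group. Its mean was 1294 CPM per kb in KDAC4 H803A, 1188 in KDAC7 H709A, 1241 in TMP195 and 2597 in KDAC4 H976Y. FTL (ENSG00000087086, chromosome 19, 48965301 to 48966878) stood at 1609, 1705, 1695 and 943 CPM in KDAC4 H976Y, at 760.3, 836 and 627 in KDAC4 H803A, at 443, 799, 708 and 774 in KDAC7 H709A and at 762, 744 and 627 in TMP195. All KDAC4 H976Y libraries lay above all others, and the other 3 groups overlapped. FTL fell against KDAC4 H976Y in all 3 comparisons. These differences were -1.005 ± 0.26, adjusted p = 0.0216, in KDAC4 H803A, -1.13 ± 0.24, adjusted p = 0.0075, in KDAC7 H709A and -1.06 ± 0.26, adjusted p = 0.0149, in TMP195. The first call ended without KDAC4 H803A replicate 2 or 3 or KDAC4 H976Y replicate 1, 2 or 3 (adjusted p = 0.0548 to 0.11), and also without the filter on low counts (adjusted p = 0.064) and with GC and length offsets (adjusted p = 0.08). The second ended with GC and length offsets (adjusted p = 0.162), and the third without TMP195 replicate 1, 2 or 3 (adjusted p = 0.0555 to 0.0803), and also without the filter on low counts (adjusted p = 0.052).

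The heavy chain FTH1 (ENSG00000167996, chromosome 11, 61959718 to 61967660), which oxidises the iron that ferritin takes in, was also highest in KDAC4 H976Y. It was at 723, 786, 756 and 528 CPM in KDAC4 H976Y, at 362, 115 and 120.1 in KDAC4 H803A, at 117, 290.2, 305 and 370 in KDAC7 H709A and at 258, 242 and 184 in TMP195. The 3 GC-rich libraries, at 115 to 120.1 CPM, were the lowest of all, and no library of another group reached the lowest KDAC4 H976Y library. Its log2 difference was -1.81 ± 0.44, adjusted p = 0.0173, in KDAC4 H803A, -1.37 ± 0.39, adjusted p = 0.0369, in KDAC7 H709A and -1.61 ± 0.44, adjusted p = 0.0245, in TMP195. Single libraries ended each call. In KDAC4 H803A it ended without KDAC4 H803A replicate 2 or 3 or KDAC4 H976Y replicate 2 or 3 (adjusted p = 0.0507 to 0.0948), and also with GC and length offsets (adjusted p = 0.0633). In KDAC7 H709A it ended without KDAC4 H976Y replicate 1, 2 or 3, KDAC7 H709A replicate 2 or 3 or TMP195 replicate 1, 2 or 3 (adjusted p = 0.0554 to 0.108), and also without the filter on low counts (adjusted p = 0.0673) and with GC and length offsets (adjusted p = 0.163), and in TMP195 without KDAC4 H976Y replicate 1, 2 or 3 or TMP195 replicate 1, 2 or 3 (adjusted p = 0.0579 to 0.112). Ferritin genes have many processed pseudogenes that share reads with them, so these levels are uncertain.

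NQO1 (ENSG00000181019, chromosome 16, 69706996 to 69726951) reduces quinones with NADH or NADPH and is a widely used readout of NRF2. It was at 91.8, 105 and 86.2 CPM in TMP195, at 89, 92.2, 102 and 53.8 in KDAC4 H976Y, at 43, 14.5 and 10.9 in KDAC4 H803A and at 15.1, 32.8, 46.5 and 46.3 in KDAC7 H709A. Every library of the inactive variants lay below every library of the other 2 groups, with the 3 GC-rich libraries lowest. On the log2 scale NQO1 differed by -1.88 ± 0.48, adjusted p = 0.0206, in KDAC4 H803A against KDAC4 H976Y and 2.04 ± 0.50, adjusted p = 0.0303, in TMP195 against KDAC4 H803A. In KDAC7 H709A against KDAC4 H976Y it was -1.26 ± 0.42, adjusted p = 0.0694, and in TMP195 against KDAC7 H709A 1.42 ± 0.45, adjusted p = 0.0785. Without KDAC4 H803A replicate 1 both of these passed (adjusted p = 0.014 and 0.0137). Neither comparison holds a KDAC4 H803A library, so these passes, like similar ones below, come from the shared fit alone. The call against KDAC4 H976Y ended without KDAC4 H803A replicate 2 or 3 or KDAC4 H976Y replicate 1, 2 or 3 (adjusted p = 0.0554 to 0.0989). The call of TMP195 against KDAC4 H803A ended without KDAC4 H803A replicate 2 or 3, KDAC4 H976Y replicate 1, 2 or 3 or TMP195 replicate 1, 2 or 3 (adjusted p = 0.0538 to 0.13), and also in the fit of the 2 groups alone (adjusted p = 0.139).

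AKR1B1 (ENSG00000085662, chromosome 7, 134442350 to 134459284), aldose reductase, was lower in both inactive variants than in the other 2 groups. It was at 26.7, 44.2 and 34.1 CPM in KDAC4 H803A and at 33.7, 42.2, 50.9 and 28.7 in KDAC7 H709A. TMP195 stood at 83, 90.5 and 73.8 and KDAC4 H976Y at 90.7, 84.5, 91.4 and 76.2. The inactive variants overlapped each other, as did the other 2 groups, and no library of the first pair reached the second. The log2 difference was -1.29 ± 0.23, adjusted p = 0.00315, in KDAC4 H803A and -1.14 ± 0.20, adjusted p = 0.0031, in KDAC7 H709A, each against KDAC4 H976Y. Over the 22 alternatives the adjusted p ran from 6.75e-07 to 0.0168 for the first and from 9.21e-07 to 0.0132 for the second. TMP195 was higher than KDAC4 H803A by 1.24 ± 0.24, adjusted p = 0.00788, and than KDAC7 H709A by 1.08 ± 0.22, adjusted p = 0.00976. The former ended in the fit of the 2 groups alone (adjusted p = 0.066). The latter ended without TMP195 replicate 2 (adjusted p = 0.0611), and also with GC and length offsets (adjusted p = 0.123).

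The related AKR1B10 (ENSG00000198074, chromosome 7, 134527592 to 134541408), which reduces aldehydes and retinal, lies close to AKR1B1 and shares 76.1% of its coding bases. It was low, at 2.39, 1.81, 2.17 and 0.824 CPM in KDAC4 H976Y, 0.0633, 0.291 and 0.219 in KDAC4 H803A, 0.0965, 0.781, 0.751 and 0.377 in KDAC7 H709A and 0.318, 0.244 and 0.669 in TMP195. All KDAC4 H976Y libraries were the highest, and the other groups overlapped. AKR1B10 differed by -3.26 ± 0.77, adjusted p = 0.0152, in KDAC4 H803A against KDAC4 H976Y and -2.13 ± 0.69, adjusted p = 0.0499, in TMP195 against it. The first ended without KDAC4 H803A replicate 3 (adjusted p = 0.055). The second kept its call under 8 of the 22 alternatives and ended without KDAC4 H803A replicate 2 or 3, KDAC4 H976Y replicate 1, 2 or 3, KDAC7 H709A replicate 2, 3 or 4 or TMP195 replicate 1, 2 or 3 (adjusted p = 0.0549 to 0.177), and also without the filter on low counts (adjusted p = 0.0911) and with GC and length offsets (adjusted p = 0.0552).

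AKR1C1, AKR1C2 and AKR1C3 reduce ketosteroids and carbonyls and lie side by side on chromosome 10. Their coding sequences are alike: 98.0% of the bases of AKR1C1 and AKR1C2 are the same, 91.9% of AKR1C1 and AKR1C3, and 91.3% of AKR1C2 and AKR1C3. The counting could therefore split reads between them, and their levels are uncertain. AKR1C1 (ENSG00000187134, chromosome 10, 4963253 to 4983283) was at 3.94, 5.42, 4.66 and 2.88 CPM in KDAC4 H976Y, at 2.79, 2.99 and 2.34 in TMP195, at 0.19, 0.969 and 0.329 in KDAC4 H803A and at 0.579, 1.48, 1.06 and 0.755 in KDAC7 H709A. The inactive variants overlapped each other and lay below every library of the other 2 groups. Its log2 difference was -3.11 ± 0.55, adjusted p = 0.00318, in KDAC4 H803A and -2.13 ± 0.46, adjusted p = 0.00849, in KDAC7 H709A, each against KDAC4 H976Y. TMP195 was higher than KDAC4 H803A by 2.46 ± 0.55, adjusted p = 0.0196, a call that ended without KDAC4 H803A replicate 3 or TMP195 replicate 1 or 2 (adjusted p = 0.0668 to 0.0856), and also in the fit of the 2 groups alone (adjusted p = 0.127). TMP195 against KDAC7 H709A gave 1.48 ± 0.47, adjusted p = 0.082, and passed without KDAC4 H803A replicate 1 (adjusted p = 0.03) or KDAC4 H803A replicate 2 (adjusted p = 0.0426).

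AKR1C3 (ENSG00000196139, chromosome 10, 5035354 to 5107686) was at 3.66, 3.3, 4.55 and 1.85 CPM in KDAC4 H976Y, at 1.08, 0.291 and 0.11 in KDAC4 H803A, at 1.54, 1.65, 2.19 and 0.713 in KDAC7 H709A and at 0.445, 2.08 and 2.01 in TMP195. Its log2 difference was -2.66 ± 0.73, adjusted p = 0.0284, in KDAC4 H803A against KDAC4 H976Y, a call that ended without KDAC4 H803A replicate 2 or 3 or KDAC4 H976Y replicate 1, 2 or 3 (adjusted p = 0.0639 to 0.108). KDAC4 H976Y replicate 4, at 1.85 CPM, lay below the highest libraries of KDAC7 H709A (2.19) and TMP195 (2.08). The gene has a second row, under the identifier ENSG00000282883, outside the primary assembly. There all KDAC4 H976Y libraries (2.66 to 4.87 CPM) lay above those of the other groups (0.0965 to 1.89). That row was not called in KDAC4 H803A against KDAC4 H976Y (-1.839 ± 0.645, adjusted p = 0.0693). Summing both rows left the calls of the 38 genes as they were but for AKR1C3 in KDAC7 H709A against KDAC4 H976Y, which passed (adjusted p = 0.0446). AKR1C2 reached 0.985, 0.957, 1.08 and 0.824 CPM in KDAC4 H976Y and 1.27, 0.488 and 0.535 in TMP195, and at most 0.219 in a library of the inactive variants.

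**Figure D4:**
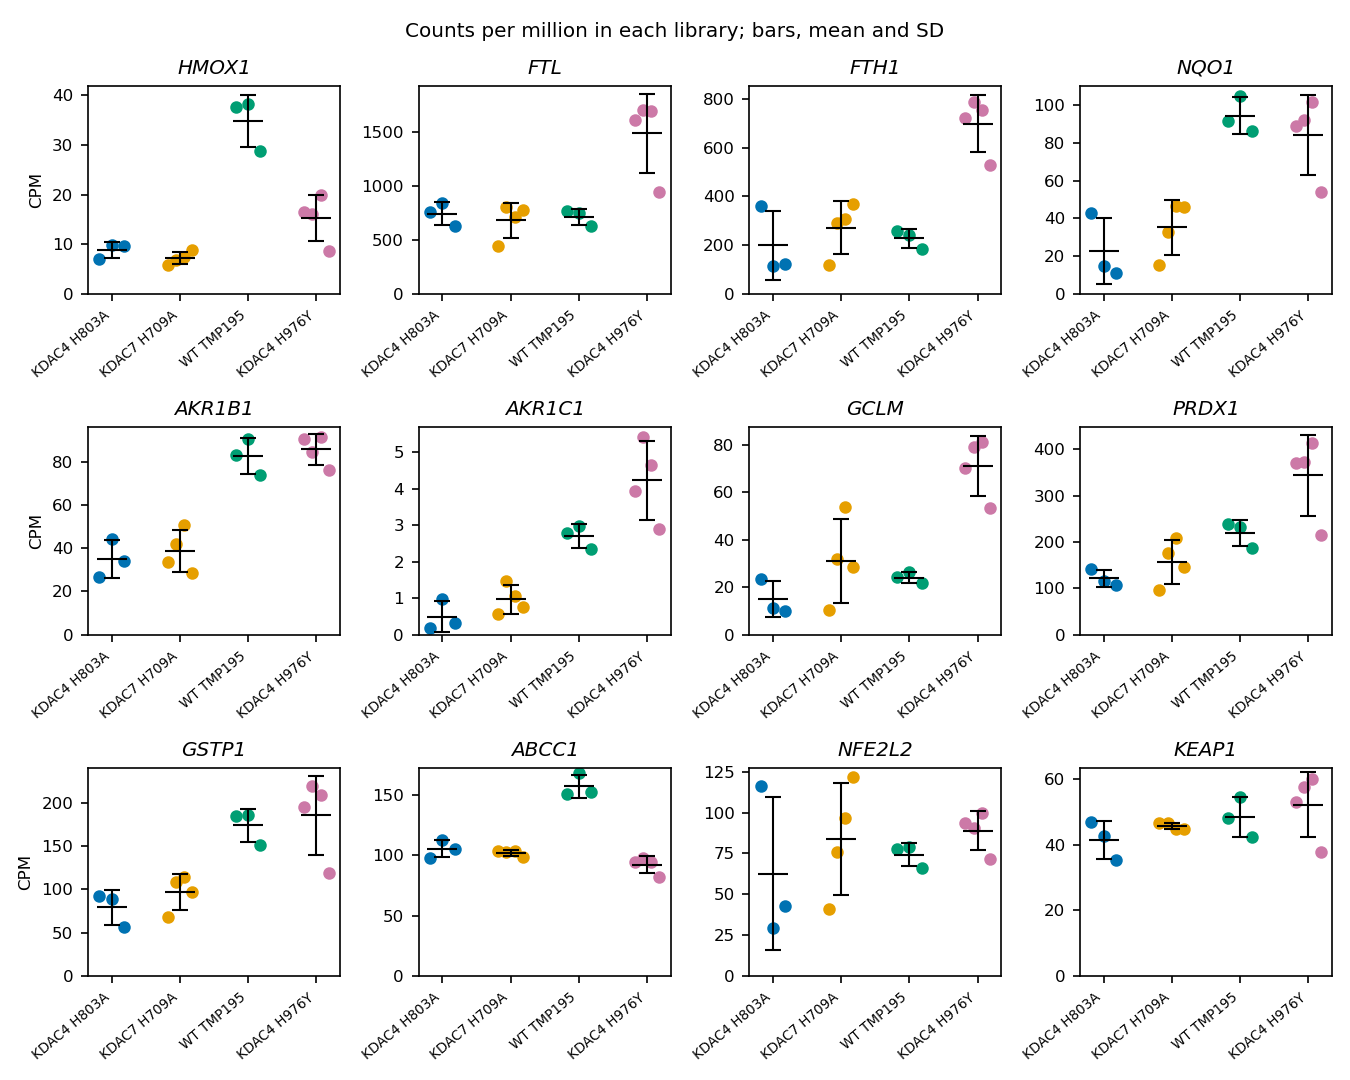
CPM (vertical axis, from 0) of 12 genes in each library of the 4 groups (horizontal axis); the black mark and bar are the group's mean and SD. HMOX1 and ABCC1 are highest in all 3 TMP195 libraries, FTL and FTH1 in all 4 KDAC4 H976Y libraries, and NFE2L2 and KEAP1 overlap between all groups.

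Glutathione is made by glutamate-cysteine ligase, of catalytic subunit GCLC and modifier subunit GCLM, and by glutathione synthetase, GSS. GCLM (ENSG00000023909, chromosome 1, 93885205 to 93909456), whose upstream window holds a core element, was at 70.2, 78.9, 81.3 and 53.4 CPM in KDAC4 H976Y, at 23.6, 11.3 and 9.98 in KDAC4 H803A, at 10.5, 31.7, 53.8 and 28.3 in KDAC7 H709A and at 24.1, 26.2 and 21.7 in TMP195. KDAC7 H709A replicate 3 reached the lowest KDAC4 H976Y library, and no library of KDAC4 H803A or TMP195 did. The log2 difference was -2.24 ± 0.46, adjusted p = 0.00678, in KDAC4 H803A and -1.56 ± 0.44, adjusted p = 0.0287, in TMP195, each against KDAC4 H976Y. The first kept its call under all 22 alternatives (adjusted p = 7.49e-07 to 0.0437). The second ended without KDAC4 H976Y replicate 1, 2 or 3 or TMP195 replicate 1, 2 or 3 (adjusted p = 0.0623 to 0.114). KDAC7 H709A gave -1.19 ± 0.39, adjusted p = 0.0658, and passed without KDAC4 H803A replicate 1 (adjusted p = 0.0317) or KDAC7 H709A replicate 3 (adjusted p = 0.0207). GCLC ranged from 13.6 to 25.9 CPM in KDAC4 H803A and from 23.5 to 28.9 in KDAC4 H976Y, a log2 difference of -0.58 ± 0.27, adjusted p = 0.147, that passed without KDAC4 H803A replicate 1 (adjusted p = 0.00972).

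GSS (ENSG00000100983, chromosome 20, 34928433 to 34956027) stood at 63, 62 and 60.2 CPM in TMP195, at 32.4, 47.1 and 47.7 in KDAC4 H803A, at 34.8, 40.5, 41.9 and 31.9 in KDAC7 H709A and at 49.1, 52.6, 56.6 and 40.2 in KDAC4 H976Y. The TMP195 libraries were the 3 highest of all. The difference from KDAC7 H709A was 0.73 ± 0.18, adjusted p = 0.0339, and ended without KDAC4 H976Y replicate 1, 2 or 3, KDAC7 H709A replicate 2 or 4 or TMP195 replicate 1, 2 or 3 (adjusted p = 0.0535 to 0.136), and also without the filter on low counts (adjusted p = 0.13), in the fit of the 2 groups alone (adjusted p = 0.0555) and with GC and length offsets (adjusted p = 0.177). The differences from KDAC4 H803A and KDAC4 H976Y were 0.54 ± 0.20, adjusted p = 0.151, and 0.31 ± 0.18, adjusted p = 0.253. GSR, which returns oxidised glutathione to its reduced form, ranged from 28.9 to 51.4 CPM in KDAC4 H803A and from 54 to 97.3 in KDAC4 H976Y (-1.11 ± 0.28, adjusted p = 0.021). That call ended without KDAC4 H803A replicate 2 or 3 or KDAC4 H976Y replicate 1, 2 or 3 (adjusted p = 0.0518 to 0.117). SLC7A11, the light chain of the cystine importer that feeds glutathione synthesis, was called nowhere; its log2 difference in KDAC4 H803A against KDAC4 H976Y was -0.46 ± 0.43, adjusted p = 0.463, and it passed without KDAC4 H803A replicate 1 (adjusted p = 0.0211).

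Among the peroxidases and the thioredoxin system, PRDX1 (ENSG00000117450, chromosome 1, 45511036 to 45523047), a peroxiredoxin that reduces hydrogen peroxide, was lower in both inactive variants than in KDAC4 H976Y under all 22 alternatives. It was at 371, 373, 414 and 215 CPM in KDAC4 H976Y, at 143, 116 and 107 in KDAC4 H803A, at 96.7, 177, 209 and 145 in KDAC7 H709A and at 239, 233 and 187 in TMP195. All libraries of both inactive variants lay below KDAC4 H976Y replicate 4, the lowest of its group, which the TMP195 libraries overlapped. On the log2 scale PRDX1 differed by -1.49 ± 0.28, adjusted p = 0.00451, in KDAC4 H803A and -1.13 ± 0.25, adjusted p = 0.0108, in KDAC7 H709A, each against KDAC4 H976Y. Across alternatives the adjusted p ran from 1.68e-06 to 0.0312 and from 8.42e-05 to 0.048. SRXN1, sulfiredoxin, which repairs overoxidised peroxiredoxins, fell in KDAC4 H803A against KDAC4 H976Y (-1.08 ± 0.30, adjusted p = 0.0306), as did the glutathione peroxidase GPX1 (-0.83 ± 0.26, adjusted p = 0.046). The SRXN1 call ended without KDAC4 H803A replicate 2 or 3 or KDAC4 H976Y replicate 1, 2 or 3 (adjusted p = 0.0763 to 0.151), and also without the filter on low counts (adjusted p = 0.0604). The GPX1 call held under 9 of 22 alternatives and ended without KDAC4 H803A replicate 1, 2 or 3, KDAC4 H976Y replicate 1, 2 or 3, KDAC7 H709A replicate 2 or TMP195 replicate 1, 2 or 3 (adjusted p = 0.0538 to 0.142), and also without the filter on low counts (adjusted p = 0.0906), in the fit of the 2 groups alone (adjusted p = 0.0806) and with GC and length offsets (adjusted p = 0.0698).

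The other members of this group, GPX2, GPX4, GPX8, TXN, TXNRD1 and PRDX6, were called nowhere. Thioredoxin reductase TXNRD1 ranged from 777 to 806 CPM in TMP195, from 245 to 549 in KDAC4 H803A, from 278 to 683 in KDAC7 H709A and from 440.4 to 771 in KDAC4 H976Y. Every TMP195 library lay above all others. Its difference between TMP195 and KDAC4 H803A was 1.16 ± 0.36, adjusted p = 0.0836, and passed without KDAC4 H803A replicate 1 (adjusted p = 0.00804) or KDAC7 H709A replicate 1 (adjusted p = 0.0315). GPX2, a glutathione peroxidase known from gut epithelium, was low, at 2.29, 2.2 and 2.67 CPM in TMP195 and 2.03, 0.521, 0.563 and 0.629 in KDAC7 H709A. That difference was 1.37 ± 0.62, adjusted p = 0.209, and passed without KDAC7 H709A replicate 1 (adjusted p = 0.034). In KDAC4 H803A against KDAC4 H976Y, thioredoxin (TXN) stood at 0.13 ± 0.45, adjusted p = 0.853, a value that turned to -0.58 without the 3 libraries. There GPX4, which reduces lipid peroxides, stood at -0.17 ± 0.24, adjusted p = 0.626, and PRDX6 at -0.78 ± 0.32, adjusted p = 0.113; PRDX6 passed without KDAC4 H803A replicate 1 (adjusted p = 0.013) or KDAC7 H709A replicate 1 (adjusted p = 0.0323).

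Of the 5 genes that supply NADPH or feed the pentose phosphate pathway, 1 was called. Transketolase, TKT, ranged from 266 to 335 CPM in KDAC4 H803A and from 415 to 579 in KDAC4 H976Y, a log2 difference of -0.77 ± 0.20, adjusted p = 0.0246. The call ended without KDAC4 H803A replicate 2 or 3 or KDAC4 H976Y replicate 1, 2 or 3 (adjusted p = 0.0662 to 0.129), and also without the filter on low counts (adjusted p = 0.101) and with GC and length offsets (adjusted p = 0.0981). ME1, malic enzyme, differed between libraries of a label, at 35.2, 6.69 and 6.69 CPM in KDAC4 H803A and 10.2, 46.3, 67.9 and 40.8 in KDAC7 H709A. The 3 GC-rich libraries lay at 6.69 to 10.2 CPM and the other 4 of these variants at 35.2 to 67.9. Its difference in KDAC4 H803A against KDAC4 H976Y was -1.60 ± 0.62, adjusted p = 0.0952, and passed without KDAC4 H803A replicate 1 (adjusted p = 0.00291) or KDAC7 H709A replicate 1 (adjusted p = 0.0331). IDH1, cytosolic isocitrate dehydrogenase, stood at 20.1, 20.6 and 22.3 CPM in TMP195, 62.1, 62.9, 69.7 and 41 in KDAC4 H976Y, 20.1, 63, 100.2 and 61.3 in KDAC7 H709A and 58.1, 17.5 and 17.9 in KDAC4 H803A. TMP195 lay below all KDAC4 H976Y libraries (-1.49 ± 0.50, adjusted p = 0.058) and that difference passed without KDAC4 H803A replicate 1 (adjusted p = 0.0145) or KDAC7 H709A replicate 1 (adjusted p = 0.0158). Without KDAC7 H709A replicate 3 it stood at the threshold (adjusted p = 0.05 after rounding). PGD and TALDO1, of the oxidative and non-oxidative branches of the pathway, lay within -0.33 to -0.30 in KDAC4 H803A against KDAC4 H976Y (adjusted p = 0.333 to 0.346).

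Of the conjugating enzymes, GSTP1 (ENSG00000084207, chromosome 11, 67583595 to 67586656), a glutathione transferase with the core element in its upstream window, was called in 3 comparisons. It was at 195, 220, 209.7 and 119 CPM in KDAC4 H976Y, at 185, 186 and 152 in TMP195, at 92.3, 89.2 and 56 in KDAC4 H803A and at 68.3, 108, 114 and 97.1 in KDAC7 H709A. Both inactive variants lay below every library of the other 2 groups. GSTP1 differed by -1.23 ± 0.26, adjusted p = 0.00888, in KDAC4 H803A and -0.94 ± 0.24, adjusted p = 0.0204, in KDAC7 H709A, each against KDAC4 H976Y, and 1.14 ± 0.28, adjusted p = 0.0288, in TMP195 against KDAC4 H803A. The first ended without KDAC4 H803A replicate 3 (adjusted p = 0.0537), and also with GC and length offsets (adjusted p = 0.1). The second ended without KDAC4 H976Y replicate 1, 2 or 3 (adjusted p = 0.0669 to 0.0792), and also without the filter on low counts (adjusted p = 0.0708) and with GC and length offsets (adjusted p = 0.403). The third ended without KDAC4 H803A replicate 2 or 3, KDAC4 H976Y replicate 1 or 3 or TMP195 replicate 1, 2 or 3 (adjusted p = 0.0513 to 0.142), and also without the filter on low counts (adjusted p = 0.0621), in the fit of the 2 groups alone (adjusted p = 0.1) and with GC and length offsets (adjusted p = 0.42). GSTM3, a transferase of the mu class, fell in KDAC4 H803A against KDAC4 H976Y (-1.27 ± 0.38, adjusted p = 0.0392), and that call ended without KDAC4 H803A replicate 2 or 3, KDAC4 H976Y replicate 1, 2 or 3, KDAC7 H709A replicate 2 or TMP195 replicate 1, 2 or 3 (adjusted p = 0.0523 to 0.184), and also without the filter on low counts (adjusted p = 0.0693) and in the fit of the 2 groups alone (adjusted p = 0.0926).

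ABCC1 (ENSG00000103222, chromosome 16, 15949577 to 16143074) pumps glutathione conjugates out of the cell. It was at 151, 168 and 153 CPM in TMP195, at 98.2, 113 and 106 in KDAC4 H803A, at 104, 103, 104 and 98.7 in KDAC7 H709A and at 94.6, 98.2, 94.8 and 81.8 in KDAC4 H976Y. The TMP195 libraries were the 3 highest, and the inactive variants overlapped. TMP195 was higher by 0.77 ± 0.14, adjusted p = 0.00225, against KDAC4 H976Y, by 0.58 ± 0.14, adjusted p = 0.0343, against KDAC4 H803A and by 0.63 ± 0.13, adjusted p = 0.0149, against KDAC7 H709A. The first call ended with GC and length offsets (adjusted p = 0.15). The second ended without KDAC4 H803A replicate 2 or 3, KDAC4 H976Y replicate 1, 2 or 3, KDAC7 H709A replicate 2 or TMP195 replicate 1, 2 or 3 (adjusted p = 0.0551 to 0.177), and also without the filter on low counts (adjusted p = 0.232), in the fit of the 2 groups alone (adjusted p = 0.201) and with GC and length offsets (adjusted p = 0.153). The third ended without TMP195 replicate 1, 2 or 3 (adjusted p = 0.0664 to 0.113), and also without the filter on low counts (adjusted p = 0.162), in the fit of the 2 groups alone (adjusted p = 0.0548) and with GC and length offsets (adjusted p = 0.345).

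MGST1, UGDH, EPHX1, ABCC2 and OSGIN1 were called nowhere. The membrane-bound transferase MGST1 stood at 58.1, 3.1 and 2.19 CPM in KDAC4 H803A, and at 13.4, 32.5, 50.8 and 54.9 in KDAC7 H709A, 21.5, 21.6 and 20.2 in TMP195 and 50.1, 54.1, 57.6 and 41.4 in KDAC4 H976Y. Replicate 1 of KDAC4 H803A was above every TMP195 and KDAC4 H976Y library and its replicates 2 and 3 below all others. The log2 difference of TMP195 from KDAC4 H803A was -0.01 ± 0.87, adjusted p = 0.995, and 3.00 without that replicate 1 (adjusted p = 0.00236). In KDAC4 H803A against KDAC4 H976Y, UGDH, which makes UDP-glucuronate, stood at -0.98 ± 0.43, adjusted p = 0.131, and the epoxide hydrolase EPHX1 at -1.02 ± 0.35, adjusted p = 0.0649. UGDH passed without KDAC4 H803A replicate 1 (adjusted p = 0.00423), and EPHX1 without KDAC4 H803A replicate 1 (adjusted p = 0.00919) or KDAC7 H709A replicate 1 (adjusted p = 0.0259). Without KDAC4 H803A replicate 1, that label holds only GC-rich libraries. The export pump ABCC2 and OSGIN1, an inhibitor of growth induced by oxidative stress, lay within -0.26 to 0.08 (adjusted p = 0.704 to 0.903).

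A further 95 genes of the same pathways were listed, of which 94 were in the table and 82 tested. For these, the values in parentheses are log2 differences with their SE, and the alternatives were not run gene by gene. In KDAC4 H803A against KDAC4 H976Y, 5 of the 82 were higher and 14 lower (9.21% and 5.85% of all genes), with a median of -0.25. In KDAC7 H709A against KDAC4 H976Y there were 7 higher and 11 lower (7.28% and 5.19%). TMP195 against KDAC4 H976Y gave 10 higher and 10 lower (7.96% and 8.55%). Against KDAC4 H803A it gave 3 higher and 1 lower (1.56% and 3.78%), and against KDAC7 H709A 6 higher and 1 lower (1.99% and 4.31%). KDAC7 H709A against KDAC4 H803A gave 0 calls among the 82 genes, as over all genes.

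Among 12 partners and regulators of NRF2, 2 were called higher in KDAC4 H803A against KDAC4 H976Y (9.21% of all genes). Against the same group, 4 were higher in KDAC7 H709A (7.28%) and 3 in TMP195 (7.96%). Lower calls were 0 in each (5.85%, 5.19% and 8.55% of all genes). MAFF, a small MAF protein, was higher in KDAC4 H803A (1.75 ± 0.38, adjusted p = 0.01), KDAC7 H709A (1.34 ± 0.36, adjusted p = 0.0274) and TMP195 (1.78 ± 0.38, adjusted p = 0.00751). BACH1, the repressor that competes with NRF2, was higher in KDAC7 H709A (0.76 ± 0.18, adjusted p = 0.0152), and NFE2L3, a relative of NRF2, in KDAC4 H803A (0.60 ± 0.16, adjusted p = 0.0272). NFE2L1, another relative, was higher in TMP195 against KDAC4 H976Y (0.60 ± 0.16, adjusted p = 0.0204), KDAC4 H803A (0.95 ± 0.17, adjusted p = 0.00459) and KDAC7 H709A (0.90 ± 0.16, adjusted p = 0.00359).

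Of 19 tested genes of glutathione synthesis, salvage and transfer, 2 were higher and 5 lower in KDAC4 H803A against KDAC4 H976Y (9.21% and 5.85% of all genes). GSTO1, an omega-class transferase, was lower (-1.58 ± 0.30, adjusted p = 0.00423), as was CHAC2, which degrades glutathione (-1.70 ± 0.41, adjusted p = 0.0156), while GGT7, a relative of gamma-glutamyltransferase, was higher (1.94 ± 0.49, adjusted p = 0.0197). TMP195 against KDAC7 H709A gave 3 higher and 1 lower (1.99% and 4.31% of all genes). There CHAC1, which also degrades glutathione, was higher by 1.47 ± 0.29, adjusted p = 0.00903, SLC3A2, the heavy chain that partners SLC7A11, was higher by 1.16 ± 0.23, adjusted p = 0.00878, and GSTM2 was lower (-1.53 ± 0.33, adjusted p = 0.0152).

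TXNIP, which binds and inhibits thioredoxin, was lower than in KDAC4 H976Y in KDAC4 H803A (-1.40 ± 0.23, adjusted p = 0.00179) and KDAC7 H709A (-1.42 ± 0.20, adjusted p = 0.000826). In TMP195 it was higher than in either (1.59 ± 0.24, adjusted p = 0.00114 and 1.61 ± 0.21, adjusted p = 0.000487). PRDX5, a peroxiredoxin, was lower than in KDAC4 H976Y in KDAC4 H803A (-1.15 ± 0.28, adjusted p = 0.0159), KDAC7 H709A (-1.11 ± 0.25, adjusted p = 0.0113) and TMP195 (-1.08 ± 0.28, adjusted p = 0.0184). Of the 12 tested NADPH genes, IDH2, the mitochondrial relative of IDH1, was higher in TMP195 (2.00 ± 0.47, adjusted p = 0.0131) and KDAC7 H709A (1.57 ± 0.45, adjusted p = 0.0364) against KDAC4 H976Y.

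The transferrin receptor TFRC, through which cells take up iron, was the called gene among the 8 tested of haem and iron handling: it was lower in TMP195 against KDAC4 H976Y (-1.78 ± 0.45, adjusted p = 0.0171). In that comparison 8.55% of all genes were called lower. In the list of other reductases, conjugation and export, 15 were tested. The quinone reductase NQO2 was lower than in KDAC4 H976Y in KDAC4 H803A (-0.67 ± 0.16, adjusted p = 0.0175) and in TMP195 (-0.68 ± 0.16, adjusted p = 0.0144). The carbonyl reductase CBR1 was lower in KDAC7 H709A (-0.98 ± 0.24, adjusted p = 0.0195) and TMP195 (-1.20 ± 0.27, adjusted p = 0.0102), and the alcohol dehydrogenase ADH5 in KDAC4 H803A (-1.30 ± 0.33, adjusted p = 0.0192). The carboxylesterase CES1 was higher in KDAC4 H803A (3.56 ± 0.64, adjusted p = 0.00346) and TMP195 (3.70 ± 0.63, adjusted p = 0.00197) against KDAC4 H976Y. DHODH, of 5 tested ferroptosis genes, was lower than in KDAC4 H976Y in KDAC4 H803A (-0.87 ± 0.26, adjusted p = 0.0413), KDAC7 H709A (-1.52 ± 0.24, adjusted p = 0.00152) and TMP195 (-0.82 ± 0.26, adjusted p = 0.0474). In a bulk library, fewer cells expressing a gene and less RNA per cell cannot be told apart.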

How the data were processed

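Per gene and library, the authors deposited expected counts that are not scaled between libraries. The submitters' processing notes name RSEM 1.3.3, Bowtie2 2.4.5, DESeq2 1.38.2 and Trimmomatic 0.39 with the build GRCh38, without roles; annotation and strand setting: not given in the sources used here. RSEM-type expected counts share reads among similar transcripts, so values of near-identical genes are uncertain, and reads of antisense neighbours cannot be told apart. In the deposited column of KDAC4 H803A replicate 4, the values equalled the transcript length minus 248.86 bases for 7367 of 7612 genes with a single transcript (96.8%; at most 0.236% at any 1 difference in another column). It was left out as counts and used as other data, the effective gene length behind CPM per kb.

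Expected counts were rounded, filtered with filterByExpr (minimum count 10, minimum total 15; 17780 genes kept), scaled by TMM and fitted in 1 model of the 4 groups with edgeR 4.0.16 (R 4.3.3, limma 3.58.1) by the quasi-likelihood F test. The 6 pairwise contrasts were adjusted by Benjamini-Hochberg over all genes tested. The value after ± beside a log2 difference is its SE, the difference over the square root of F. The fit had a common dispersion of 0.179 with 3.32 prior degrees of freedom. On simulated counts for KDAC4 H803A against KDAC4 H976Y (17264 genes, 200 changed), 41% of 4-fold and 6% of 2-fold changes were called, with 0 false calls. With a dispersion of 0.02 these were 99% and 85%, with 14 false calls (16770 genes). The simulated libraries held no GC split and no library resembling another group, so these counts do not measure false calls in the real libraries. Coordinates are those of GENCODE on GRCh38, matched by gene ID (57055 matched). Alternatives were DESeq2 1.42.0, its size factors, no filter, only the groups compared, the replicate number as a block, GC and length offsets, leaving out the 3 libraries that stand apart or each of 14 libraries, and, added after seeing the data, both AKR1C3 rows summed. All 38 genes may be named; values in every library are given for NFE2L2, KEAP1, genes called in 3 or more comparisons and the 5 largest called changes of each comparison, and for IDH1 and MGST1, chosen after their values were seen, as were GPX2, ME1 and AKR1C2, given in some groups. From the pathway lists, up to 3 genes per list and comparison with the smallest adjusted p are named; 1 of them is not reported here. The members and lists were chosen with earlier results of these data known.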

Additional observations from a re-analysis of the deposited data

Results flagged for a closer look

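In a group of 4 libraries, a value was noted when its gap to the nearest other library, divided by the group's range, exceeded Dixon's 95% critical value. Chance alone gives about 1 such note in 20 groups; 72 groups were examined and 8 noted. In KDAC7 H709A, all 4 notes fell on replicate 1, the GC-rich library of that group. It held PRDX6 at 67.9 CPM (160.5 to 167 in the others), UGDH at 9.55 CPM (25.4 to 28.1), EPHX1 at 7.24 CPM (14.6 to 16) and GPX2 at 2.03 CPM (0.521 to 0.629). In KDAC4 H976Y, all 4 fell on replicate 4, the library with the highest share of mitochondrial ribosomal RNA (31.5%). It held FTL at 942.9 CPM (1609 to 1705 in the others), TKT at 415 CPM (562 to 579), GPX1 at 153 CPM (264 to 287) and ABCC2 at 3.91 CPM (1.92 to 2.25).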

How the results depend on the processing

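Counts of calls are given in the order KDAC4 H803A, KDAC7 H709A and TMP195 against KDAC4 H976Y, then TMP195 against KDAC4 H803A and against KDAC7 H709A, then KDAC7 H709A against KDAC4 H803A, where the fit of all libraries gave 15, 7, 6, 6, 4 and 0 of the 37 genes tested; alternatives tested 35 to 38. Only values beyond 1.5 times the count are given. DESeq2 gave 13 for KDAC7 H709A against KDAC4 H976Y, and 11 and 9 for TMP195 against the inactive variants. Over all genes DESeq2 gave 4377, 3394, 4493, 1936, 2484 and 79. Fits of only the groups compared gave 20 of 37, 1 of 36 and 2 of 37 for the TMP195 comparisons. The shares of all genes called there were 58.8%, 2.15% and 4.86%. Over all genes, these fits gave 1634 for the first comparison, and 9576 and 366 for TMP195 against KDAC4 H976Y and KDAC4 H803A. Of the 38 calls, 17 ended with GC and length offsets, 13 without a filter and 9 in the fits of only the groups compared. Among the 37 genes, new calls numbered 11 with GC and length offsets, 0 without a filter and 16 in the fits of only the groups compared. Without a filter AKR1C2 was also tested. It was then called lower in KDAC4 H803A and KDAC7 H709A against KDAC4 H976Y, and higher in TMP195 against KDAC7 H709A. Without a filter the last comparison had 14 calls over all genes. GC and length offsets gave 2 in TMP195 against KDAC7 H709A. Without the 3 libraries that stand apart the counts were 32, 12, 18, 28, 15 and 22 of 38. Over all genes they were 11848, 5829, 9895, 8792, 8392 and 11044. These are 64.5%, 31.8%, 53.9%, 47.9%, 45.7% and 60.2% of all genes. Leaving out 1 library at a time gave 5 to 27, 4 to 13, 2 to 9, 2 to 14, 1 to 9 and 0 to 16, and over all genes 1129 to 8431, 1215 to 3440, 1307 to 5079, 436 to 2695, 422 to 2755 and 0 to 4788. Among the genes described, the highest of each came without KDAC4 H803A replicate 1.

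The replicate number as a block gave 7, 4, 3, 3, 2 and 0 of the 37, and over all genes 1230, 1322, 1556, 563 and 453. It ended 19 of the 38 calls. The numbers do not pair the libraries: over 19 pairs of the same number, deviations correlated between -0.631 and 0.293, with 5 pairs above 0.1.

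Of 222 gene values, 58 changed sign under at least 1 alternative, 56 of them with no call on either side; the other 2 follow. TXN in KDAC4 H803A against KDAC4 H976Y went from 0.13 to -0.58 without the 3 libraries. MGST1 in TMP195 against KDAC4 H803A went from -0.01 to 2.99 without them, and ran from -0.59 without KDAC4 H803A replicate 3 to 3.00 without KDAC4 H803A replicate 1 when 1 library was left out. The cause was not tested. Replacing TMM moved the median of all genes by under 0.1. AKR1B10, AKR1C1 and AKR1C3 had under 6 CPM in every library, so depth limits their values.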
